A study of Mus musculus with 26 samples.

Results

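Adult germline stem cells can reach pluripotency in culture by 2 routes, and the 4 pluripotent clones derived from a single adult line were compared here: 2 induced pluripotent (iPSC) clones, iPSC[GSCadult] #1 and #2 (4 arrays), against 2 germline-derived pluripotent (gPSC) clones, gPSC[GSCadult] #1 and #2 (4 arrays). The members were chosen by the cell line labels, and make up 8 of the 26 arrays and 4 of the 13 lines of the series. Both kinds came from the same day 40 germline stem cell (GSC) line, so origin is shared between them. Every line carries the strain label OG2, a mouse with a GFP reporter under the Oct4 promoter. The reprogramming factors, feeder cells and passage of these clones are not given in the labels. Each clone was hybridised to 2 Illumina bead arrays, called biological replicates in the labels, with nothing that says they were separate cultures. The clone was therefore the unit, n = 2 per kind. Other lines serve below as landmarks: the adult GSC line itself, 2 iPSC and 2 gPSC clones of a neonatal (day 10) GSC line, embryonic stem cells (ESC), fibroblasts (MEF) and iPSC made from fibroblasts (iPSC[MEF]).

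Induced pluripotent cells are made by forcing expression of transcription factors such as Oct4, Sox2, Klf4 and Myc. Germline-derived pluripotent cells appear in cultures of spermatogonial stem cells without added genes, and germline stem cells already express some of that network. Cultures of mouse pluripotent cells hold rare cells that switch for a short time into a state like the embryo at the first cleavage, marked by Zscan4, Tcstv and related genes. Other rare cells drift towards primitive endoderm, the lineage that lays down laminin and becomes the yolk sac.

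Levels are normalised log2 signals, so a step of 1 unit is a 2-fold difference. A gene was said to separate the kinds when both iPSC clones lay on the same side of both gPSC clones, and its margin is the gap between the nearest clones. The precision of an array depends on its signal relative to background. The 8 arrays detected 10469 to 11952 of their 25697 probes (40.7% to 46.5%), and the 95th percentile of signal stood at 9.24 to 10.3 times background. The first array of each gPSC clone had a background of 91.1 and 91.4, against 81.8 to 85.0 on the 4 iPSC arrays and 84.0 and 85.4 on the second gPSC arrays. The number of clones limits every value: an exact two-sided permutation of 2 clones against 2 cannot give a p below 0.333.

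Promoters of 4 of the 18 genes whose margin reached 1 log2 unit are shown: Spint5 for the widest margin, Zscan4c as the marker of the two-cell-like state, and Pramel31 and Gm13043 as close copies of each other. They are RefSeq sequences on GRCm38.p6, from 250 bases before to 50 after the gene start, with the TATA box letters TATAAA in capitals. The positions are chr7:11005495-11005794 for Zscan4c, chr4:144357714-144358013 for Pramel31, chr4:143511093-143511392 for Gm13043 and chr2:164715055-164715354 for Spint5, all on the plus strand.
Zscan4c: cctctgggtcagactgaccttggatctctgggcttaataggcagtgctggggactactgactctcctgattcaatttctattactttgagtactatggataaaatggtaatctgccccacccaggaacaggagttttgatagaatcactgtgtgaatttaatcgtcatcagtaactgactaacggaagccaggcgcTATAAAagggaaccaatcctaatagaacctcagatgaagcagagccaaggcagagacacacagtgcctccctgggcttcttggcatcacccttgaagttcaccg
Pramel31: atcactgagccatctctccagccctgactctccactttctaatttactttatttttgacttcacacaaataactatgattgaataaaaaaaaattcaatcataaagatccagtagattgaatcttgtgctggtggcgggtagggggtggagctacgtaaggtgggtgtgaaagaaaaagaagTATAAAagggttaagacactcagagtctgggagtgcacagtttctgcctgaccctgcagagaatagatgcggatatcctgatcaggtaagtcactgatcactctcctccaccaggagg
Gm13043: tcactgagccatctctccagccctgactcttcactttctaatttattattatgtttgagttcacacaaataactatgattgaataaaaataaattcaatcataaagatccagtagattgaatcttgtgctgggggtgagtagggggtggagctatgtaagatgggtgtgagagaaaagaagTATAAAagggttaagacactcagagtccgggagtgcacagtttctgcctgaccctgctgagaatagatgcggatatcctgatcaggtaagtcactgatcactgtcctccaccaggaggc
Spint5: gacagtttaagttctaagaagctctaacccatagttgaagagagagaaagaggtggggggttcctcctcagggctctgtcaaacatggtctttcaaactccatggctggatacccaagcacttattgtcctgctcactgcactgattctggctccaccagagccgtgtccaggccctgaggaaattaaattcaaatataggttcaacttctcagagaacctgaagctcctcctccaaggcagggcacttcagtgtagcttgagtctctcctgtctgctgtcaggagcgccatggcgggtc
The table held promoters for 12 of the 18 genes. TATAAA, searched on both strands, was found in 5 of these 12 (Zscan4c, Pramel31, Pramel20, Gm13043 and Gm428) and in 13.6% of all 32851 promoters. The binding motif of Dux, an embryonic activator of two-cell-stage genes, was also searched on both strands, and was found in 0 of the 12 and in 0.0335% of all. In Zscan4c, Pramel31 and Gm13043 TATAAA starts 54, 68 and 69 bases before the gene start. Pramel31 and Gm13043 promoters were 94% identical over an alignment of 302 columns, so these are close copies, and their probes may share signal. The Pramel20 promoter was 75.6% identical to that of Pramel31 and 75.7% to that of Gm13043. The 5 promoters with TATAAA therefore include related copies.

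Zscan4c and Tmem92 had higher signals in both iPSC clones than in both gPSC clones, though neither passed the test on clone means. Zscan4c, a telomere-associated zinc finger gene and the usual marker of the two-cell-like state, had 10.80 and 10.73 in iPSC clone 1 and 10.68 and 10.65 in iPSC clone 2, against 7.35 and 7.62 in gPSC clone 1 and 9.39 and 9.41 in gPSC clone 2. All 4 iPSC arrays lay above all 4 gPSC arrays, but the gPSC clones also lay far apart. The difference was 2.27 ± 0.67 (SE) and did not pass (limma adjusted p = 1.00). Tmem92, a membrane protein gene used as a marker of the same state, had 7.82, 7.83, 7.85 and 7.89 on the iPSC arrays, against 5.34, 5.50, 5.81 and 5.65 on the gPSC arrays. Here the clones of each kind lay close together, at 7.85 ± 0.03 in iPSC and 5.57 ± 0.22 in gPSC (SD, n = 2 each), a difference of 2.27 ± 0.48 (limma adjusted p = 1.00).

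Of the 32 listed two-cell-like genes 9 were measured. In 7 of the 9 both iPSC clones were above both gPSC clones, and in 0 below, against 16.1% and 11.7% of all 9840 genes tested. The 7 include Zscan4c and Tmem92, markers that were proposed with earlier results of these data known. Tcstv3 (8.96 and 9.16 in iPSC clones, 6.72 and 7.82 in gPSC clones) and Tcstv1 (8.40 and 8.59, against 6.07 and 7.28 in gPSC), genes of a family named for the two-cell stage, had the same order of clones, with gPSC clone 2 above gPSC clone 1. Zfp352, a zinc finger gene of early cleavage, was detected on all 4 iPSC arrays and on 0 gPSC arrays, which puts it at least 1.01-fold higher in iPSC. It was detected on 1 array elsewhere and so passed the filter only through the iPSC arrays, and without it 6 of 8 genes separated upwards. The median difference of the 9 was 1.05, and that of all genes 0.02. The list's median was 0.39 with no background correction, 0.56 at an offset of 50 and 1.97 in the deposited matrix. With the main processing it was 1.51 against gPSC clone 1 alone and 0.61 against gPSC clone 2 alone, so gPSC clone 2 lay between. In the clones of neonatal origin the median of the same 9 genes was -0.08. Zscan4c itself stood there at 9.69 and 8.44 in iPSC and at 9.90 and 9.35 in gPSC. The adult difference exceeded the neonatal by 2.84 ± 0.95, which did not pass as an interaction (limma adjusted p = 0.999). ESC stood at 7.76, near gPSC clone 1, and the adult GSC parent at 4.28 with no detection on its 2 arrays.

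Of 7 measured genes with a Pramel symbol, a family expressed in germ cells and early embryos, 5 had both iPSC clones above both gPSC clones and 0 below, beside 16.1% and 11.7% of all genes. This count was made after the values were seen, and the genes given here are those with the widest margins. Pramel31 had 7.34, 7.33, 7.42 and 7.28 on the iPSC arrays, against 4.77 and 5.02 in gPSC clone 1, where it was not detected, and 5.74 and 5.76 in gPSC clone 2. Pramel20 averaged 8.45 ± 0.18 in iPSC and 6.33 ± 0.88 in gPSC, and Gm13043 8.91 ± 0.17 and 6.76 ± 0.97 (SD, n = 2 each, iPSC first). Gm428, a predicted gene on chromosome 4, stood at 8.76 and 9.20 in iPSC clones against 6.04 and 7.34 in gPSC clones. In Pramel31, Pramel20, Gm13043 and Gm428 the gPSC clone 2 value was the higher of the gPSC pair, as for Zscan4c and the Tcstv genes. Gm13043 and Gm428 do not carry a Pramel symbol. Among the 7 genes that do, gPSC clone 2 was above gPSC clone 1 in 5.

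**Figure D1:**
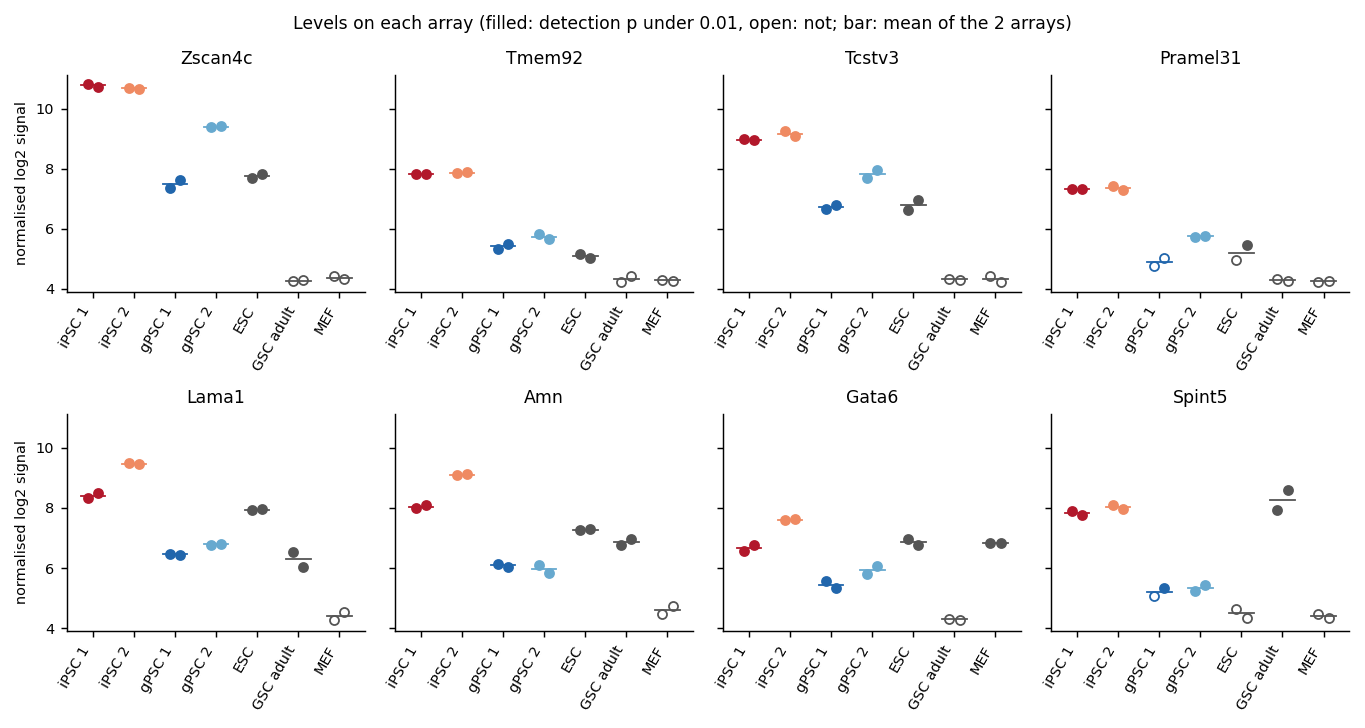
Normalised log2 signal (vertical axis) of 8 genes on each array of the 2 iPSC and 2 gPSC clones of adult origin, with ESC, the adult GSC parent and MEF beside them. Points are arrays, filled where detected, and bars are means of 2 arrays; both iPSC clones stand above both gPSC clones in every panel, and Spint5 is also high in the adult GSC line.

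Lama1 and Amn, genes of the endoderm and its basement membrane, also had both iPSC clones above both gPSC clones. Lama1 encodes the alpha chain of laminin-111, the first laminin of the embryo. It had 8.32 and 8.49 in iPSC clone 1 and 9.48 and 9.46 in iPSC clone 2, against 6.47 and 6.45 in gPSC clone 1 and 6.78 and 6.81 in gPSC clone 2. The difference was 2.31 ± 0.43 (limma adjusted p = 1.00), and ESC stood between at 7.94. Of 14 measured laminin and basement membrane genes, Lama1 alone reached a margin of 1 log2 unit. In 3 of the 14 (21.4%) the iPSC clones were above both gPSC clones and in 1 (7.14%) below, near the 16.1% and 11.7% of all genes. Their median difference of 0.13 was 0.40 against gPSC clone 1 alone and -0.055 against gPSC clone 2 alone. Amn, whose product amnionless anchors the cubilin uptake receptor in visceral endoderm, stood at 8.05 and 9.11 in the iPSC clones against 6.09 and 5.96 in the gPSC clones.

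The endoderm transcription factors Gata6, Sox7 and Sox17 had low signals. Gata6, which starts the primitive endoderm programme, was at 6.66 and 7.61 in iPSC clones and 5.45 and 5.92 in gPSC clones (difference 1.45 ± 0.86, limma adjusted p = 1.00). Sox7 and Sox17, SRY-box factors of the endoderm, were detected on all 4 iPSC arrays and on 0 gPSC arrays, at least 1.79-fold and 1.38-fold higher in iPSC. These bounds hold for the probes used: another kept Sox7 probe had a difference of 0.52, against 1.37 for the probe used. Outside the adult iPSC arrays Sox7 was detected on 1 array, so it passed the filter of 2 arrays only through the clones in which it is high. In each of Lama1, Amn, Gata6, Sox7 and Sox17, iPSC clone 2 lay above iPSC clone 1. Rhox5, a homeobox gene of the X chromosome, averaged 12.04 ± 0.04 in iPSC and 10.24 ± 1.04 in gPSC (SD, n = 2 each). Among 18 measured endoderm genes 9 (50%) separated upwards and 1 (5.56%) downwards, against 16.1% and 11.7% of all genes, and without Sox7 the upward count is 8 of 17. The 9 include Hnf4a, which lies in the chromosome 2 stretch described below. The median difference of the 18 was 0.23, with 0.079 under no background correction, 0.10 at an offset of 50 and 0.61 in the deposited matrix. The list ran down to -1.80 for Thbd, the anticoagulant receptor thrombomodulin, at 5.75 and 4.63 in iPSC clones against 5.58 and 8.40 in gPSC clones. Of 18 trophoblast and epithelial genes 12 (66.7%) separated upwards and 0 downwards, against 16.1% and 11.7% of all genes. Their median was 0.41, against 0.16 with no background correction and 0.65 in the deposited matrix. Among the 12 were the simple keratins Krt8 (7.94 ± 0.40 in iPSC, 6.80 ± 0.21 in gPSC) and Krt18 (6.72 ± 0.45 and 5.65 ± 0.43, iPSC first) and the tight junction gene Cldn4 (10.46 ± 0.35 and 9.46 ± 0.26, SD, n = 2 each). In the neonatal clones the trophoblast and epithelial list had a median of 0.75, higher in iPSC as well.

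Spint5 gave the smallest p of all genes. It encodes a Kunitz-type protease inhibitor of the reproductive tract. Its signal was 7.92 and 7.77 in iPSC clone 1 and 8.09 and 7.96 in iPSC clone 2, against 5.07 and 5.34 in gPSC clone 1 and 5.23 and 5.43 in gPSC clone 2, with 3 of the 4 gPSC arrays detected. The 2 kinds did not overlap, and the margin of 2.51 was the widest among the 9840 genes. The difference was 2.66 ± 0.30 (limma adjusted p = 0.727). Among the landmark lines the 2 germline stem cell lines were as high, the adult parent at 8.28 and the neonatal line at 7.85 and 7.90 on its arrays. ESC stood at 4.49, iPSC[MEF] at 5.13, and the 4 neonatal clones at 4.48 to 5.38. Of the 15 measured protease inhibitors, Wfdc2, a secreted epithelial inhibitor, also stood higher in iPSC (11.89 and 12.29, against 11.12 and 10.53 in gPSC clones). In all, 4 of 15 (26.7%) separated upwards and 1 (6.67%) downwards, against 16.1% and 11.7% of all genes. The list's median was negative at -0.15, at 0.15 against gPSC clone 1 alone and -0.56 against gPSC clone 2 alone. Its lowest member was Timp2, a metalloproteinase inhibitor, at 7.99 ± 0.69 in iPSC and 9.76 ± 2.35 in gPSC (SD, n = 2 each). Spint5 and Wfdc2 are neighbours on chromosome 2, in the stretch described further below.

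Over all genes, limma on clone means passed 0 of 9840 as higher and 0 as lower (0% each) at an adjusted threshold of 0.05. Before adjustment 274 genes were below 0.05. The 5 smallest p-values belonged to Spint5, Gm4981, Eif4e3, Pdlim3 and Amn. Both iPSC clones lay at least 1 log2 unit above both gPSC clones in 18 genes (0.183%) and at least 1 unit below in 0 (0%). Besides those above, the 18 held Gm4981, Stard8, Esam, Notch4, Gm20767 and Pdlim3. In all 18 the 4 iPSC arrays also lay above the 4 gPSC arrays. The number past this margin depends on the processing: it was 8 with no background correction and 52 in the deposited matrix. Leaving out gPSC clone 1 made it 119, but with fewer clones to clear this number can only rise or stay. With arrays in place of clone means and the line as a random block, limma called 18 genes, all higher in iPSC, of which 13 belonged to the 18 with the wide margin. That fit called all 4 of Zscan4c, Tmem92, Spint5 and Lama1 (limma adjusted p = 0.00791, 0.000678, 0.000678 and 0.00386), and it uses a single correlation between arrays of a line for every gene. Its observations are arrays and not clones, so these p-values do not replace those on clone means. The 4 genes were proposed with earlier results of these data known, so their being called is no independent support.

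Where the 18 genes stand in other lines differed from gene to gene. ESC lay nearer to the gPSC mean in 13 and nearer to the iPSC mean in 5. Both iPSC clones were above every other pluripotent line, neonatal clones, ESC and iPSC[MEF], in 11 of the 18. The adult GSC parent showed no detected signal in 12. The difference between iPSC and gPSC of neonatal origin was positive in 10 and negative in 8. These genes were chosen for their adult margin, so a smaller neonatal difference follows in part from the choice. As a test of origin, limma's method by origin interaction passed 0 of the 9840 (0%), and 161 were below 0.05 before adjustment. Its smallest p-values belonged to Tma7, Tdgf1 and Spint5, whose interaction was 2.79 ± 0.42 (limma adjusted p = 0.999).

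**Figure D2:**
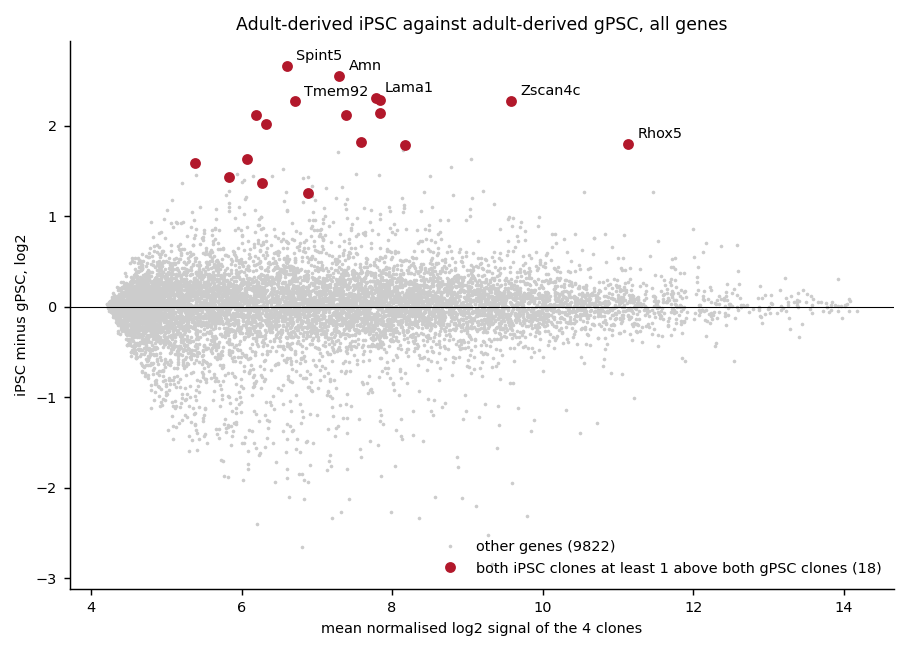
Difference between iPSC and gPSC of adult origin (vertical axis, log2) against the mean level of the 4 clones (horizontal axis, normalised log2 signal) for 9840 genes. The 18 genes with a margin of at least 1 log2 unit are red and all lie above 0; of the 216 grey genes below -1, 207 have gPSC clones at least 1 log2 unit apart.

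Genes lower in both iPSC clones had narrower margins. Eif4e3, a cap-binding translation factor, had 6.02, 5.95, 5.30 and 5.61 on the iPSC arrays against 6.91, 6.89, 7.17 and 6.91 on the gPSC arrays, a difference of -1.25 ± 0.21 (limma adjusted p = 1.00). Adm, the vasodilator peptide adrenomedullin, stood at 5.37 and 5.80 in iPSC clones and 6.75 and 6.71 in gPSC clones. Gstm5, a glutathione transferase, was at 7.02 and 6.82 in iPSC clones and 7.91 and 7.87 in gPSC clones. Gadd45g, a stress and demethylation-linked gene, was at 9.77 and 9.53 against 10.38 and 10.34 in gPSC clones. Margins of the 12 widest in this direction ran from -0.92 for Eif4e3 to -0.57 for Gadd45g, and the others were Iapp, Chst1, Rgs10, Tada1, Sgcb, Lgi2, Golim4 and Reck. Iapp, an islet peptide, was detected on the first array of each gPSC clone (6.19 and 6.04), and stood, undetected, at 4.45 and 4.46 on their second arrays, against 4.26 to 4.54 on the iPSC arrays. It was likewise detected on the first but not the second array of ESC, iPSC[MEF], both GSC lines and both neonatal gPSC clones. On the arrays of lower background its difference was -0.03 in place of -0.86.

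The core pluripotency factors were high in all 4 clones. Nanog, a homeobox factor absent from germline stem cells, averaged 11.71 ± 0.47 in iPSC and 11.14 ± 0.50 in gPSC (SD, n = 2 each), against 4.53 in the adult GSC parent. Pou5f1, which encodes OCT4, had 11.97 ± 0.13 in iPSC and 11.80 ± 0.36 in gPSC, and its difference of 0.17 ± 0.22 did not pass (limma adjusted p = 1.00). Sox2 had 8.88 ± 0.35 and 8.45 ± 0.38, and Klf4 10.04 ± 0.48 and 9.31 ± 0.24, iPSC first. Of 31 measured genes of the naive network, 11 (35.5%) separated upwards in iPSC and 1 (3.23%) downwards, against 16.1% and 11.7% of all genes. Their median difference was 0.31. It was 0.50 without iPSC clone 1, 0.21 without iPSC clone 2, 0.36 without gPSC clone 1 and 0.21 without gPSC clone 2. The 11 included Tbx3, a T-box factor (10.33 ± 0.02 in iPSC, 9.76 ± 0.07 in gPSC), the junction gene Jam2 (8.42 ± 0.43 and 7.59 ± 0.06, iPSC first), the zinc finger factor Sall4 (12.28 ± 0.10 in iPSC, 11.73 ± 0.05 in gPSC) and Dppa3, an oocyte and germ cell factor (9.10 ± 0.03 and 8.47 ± 0.21, iPSC first; SD, n = 2 each). Other Jam2 probes had smaller differences, of 0.46, 0.53 and 0.49, against 0.82 for the probe used. Sall4 lies in the chromosome 2 stretch described below. Stra8, a retinoic acid target of premeiotic germ cells, was detected on all 4 iPSC arrays and on 0 gPSC arrays, at least 1.40-fold higher in iPSC. The spermatogonial list as a whole had a median of 0.04, with 4 of 26 (15.4%) separating each way, near the 16.1% up and 11.7% down of all genes.

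Of the 4 clones, gPSC clone 2 had the highest mean level of the fibroblast list (8.77) and the interferon list (7.84), and the lowest of the glycolysis and hypoxia list (8.27). The 2 gPSC clones differed by at least 2-fold in 934 genes: 627 (6.37%) were higher and 307 (3.12%) lower in clone 2. Such counts depend strongly on the processing: the 934 became 347 with no background correction and 1793 in the deposited matrix. The 2 iPSC clones differed in 233, of which 111 (1.13%) were higher and 122 (1.24%) lower in clone 2. The nearest pair of all were iPSC clone 1 and gPSC clone 1, at 148 genes, and the farthest iPSC clone 2 and gPSC clone 2, at 1165. The other pairs stood at 285 (iPSC clone 2 and gPSC clone 1) and 651 (iPSC clone 1 and gPSC clone 2). The 2 arrays of a clone differed in 0 genes in either iPSC clone and 6 in either gPSC clone. ESC differed from the iPSC clones in 451 and 334 genes, and from the gPSC clones in 242 and 1173.

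**Figure D3:**
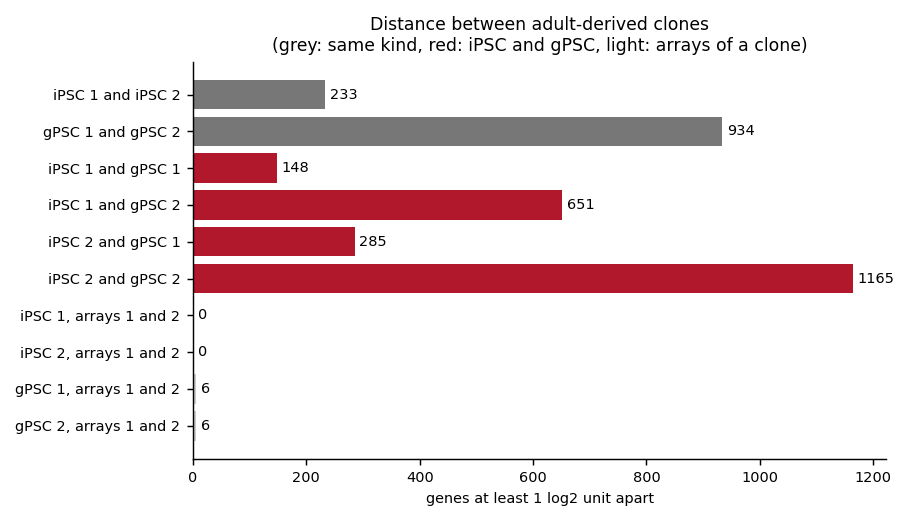
Number of genes at least 1 log2 unit apart (horizontal axis) between each pair of adult-derived clones and between the 2 arrays of a clone. Pairs of an iPSC and a gPSC clone range from 148 to 1165 genes, and the pairs within a kind, at 233 and 934, lie inside that range.

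The 6 genes with the widest excess of gPSC clone 2 over clone 1 were Ccl2, Lcn2, Hp, Saa3, Cxcl5 and Ifit3. Lcn2, an iron-scavenging lipocalin, had 13.18 and 13.10 in gPSC clone 2 and 8.36 and 8.34 in gPSC clone 1, while iPSC clones 1 and 2 averaged 9.30 and 6.52. Saa3, serum amyloid A3, had 12.87 and 12.84 in gPSC clone 2, against 8.26 and 8.16 in gPSC clone 1. Ccl2, a monocyte chemokine, reached 10.02 and 10.03 in gPSC clone 2 and 4.72 and 4.84 in clone 1, where it was not detected. Lcn2, Saa3 and Hp were also among the 6 genes that iPSC clone 1 held highest over iPSC clone 2, with Isg15, Usp18 and Enox1. The 6 with the widest excess of iPSC clone 2 over iPSC clone 1 were Hrc, Cidea, Rgcc, Aldoc, Oser1 and Loxl2. Between the gPSC clones, clone 2 lay furthest below clone 1 in Xlr4a (7.62, against 11.25 in clone 1), an X-linked lymphocyte-regulated gene, and in Mgarp, Smc1b and Rims3. With them were the hypoxia targets Aldoc (5.49 in gPSC clone 2, against 8.70) and Egln3 (5.96, against 8.85).

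Lists showed the same split. Fibroblast and matrix genes, 36 measured, had a median difference of -1.09 between the kinds, with 14 (38.9%) separating downwards in iPSC and 2 (5.56%) upwards, against 11.7% and 16.1% of all genes. Against gPSC clone 1 alone the median was -0.10, and against gPSC clone 2 alone -2.04. Their mean level was 6.83 and 6.78 in the iPSC clones, 6.86 in gPSC clone 1 and 8.77 in gPSC clone 2, with ESC at 7.46 and MEF at 10.65. Mmp2, a matrix-degrading protease, had 10.99 and 10.84 in gPSC clone 2 and between 7.83 and 8.49 on the other 6 arrays. Collagen gene Col3a1 had 9.45 and 9.73 in gPSC clone 2, 6.75 and 7.24 in gPSC clone 1, and 6.06 to 6.78 on the iPSC arrays. Of the 36 genes 29 were at least 2-fold higher in gPSC clone 2 than in clone 1, beside 6.37% of all genes. In these bulk samples a share of other cells and a change within each cell cannot be told apart.

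Interferon genes (25 measured) had a median of -0.60 with both gPSC clones, -0.00 against gPSC clone 1 alone and -1.13 against clone 2 alone. Glycolysis and hypoxia genes (25 measured) went the other way, at 0.41, -0.13 and 0.77 in that order. Between the iPSC clones, interferon genes were at least 2-fold lower in clone 2 in 9 of 25, beside 1.24% of all genes. The two-cell-like, trophoblast and epithelial, endoderm and naive pluripotency medians were positive against either gPSC clone, at 1.51 and 0.61, 0.30 and 0.38, 0.39 and 0.15, and 0.21 and 0.36 against clones 1 and 2. So were the mesoderm (0.21 and 0.034), spermatogonial (0.0098 and 0.11), DNA methylation enzyme (0.088 and 0.17) and reprogramming factor medians (0.29 and 0.31). Among all genes, both iPSC clones were above gPSC clone 1 in 28.9% and below it in 34%. Against gPSC clone 2 these shares were 46.3% and 30.4%.

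**Figure D4:**
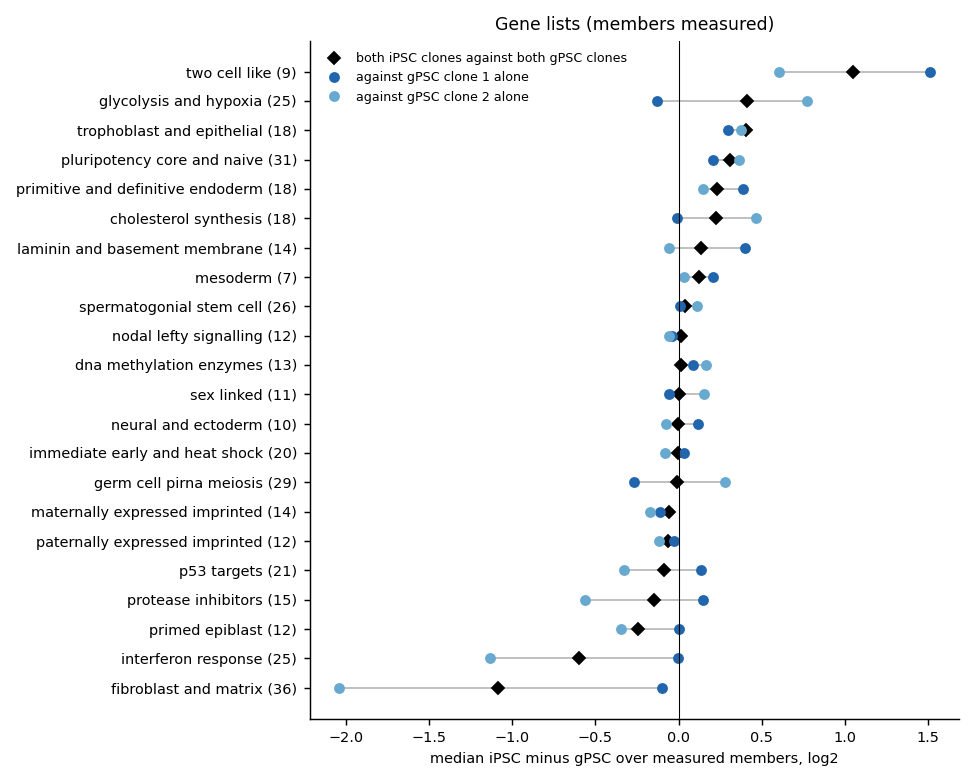
Median iPSC minus gPSC difference (horizontal axis, log2) of each gene list with at least 7 measured genes, against both gPSC clones (diamonds) and against each alone (circles). Two-cell-like genes are highest at 1.05 and fibroblast genes lowest at -1.09, and the fibroblast list is at -0.10 against gPSC clone 1.

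Imprinted genes, whose expression depends on the parent of origin and which the male germline resets, separated in both directions, beside 16.1% up and 11.7% down among all genes. Of 12 paternally expressed genes 1 (8.33%) separated upwards and 3 (25%) downwards, with a median of -0.07. Of 14 maternally expressed genes 1 (7.14%) separated upwards and 4 (28.6%) downwards, with a median of -0.06, which was 0.02 without iPSC clone 1. Ndn, a paternally expressed growth regulator, was at 8.25 and 7.64 in iPSC clones and 8.70 and 9.50 in gPSC clones. The maternally expressed cell cycle inhibitor Cdkn1c was at 5.89 and 6.54 in iPSC clones and 6.94 and 7.09 in gPSC clones, below ESC at 8.52. Grb10, a growth factor receptor adaptor, was at 6.94 and 6.31 in iPSC and 7.27 and 8.63 in gPSC clones. No imprinted gene passed the test.

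Genes at the far end of chromosome 2 lay higher together in both iPSC clones. This was seen after the data were examined, by taking the median deviation from the 6 other pluripotent lines over windows of 15 neighbouring genes, for genes with a mean level of at least 6.5. Of 4889 windows, 71 put both iPSC clones at least 0.25 above both gPSC clones, and all 71 lay on chromosome 2. The widest margin was 0.74 there and 0.19 on any other chromosome. The windows span Map1lc3a to Ctsz, in which 139 genes were measured. In iPSC clone 1 the median deviation over the 79 well-expressed genes of the stretch was 0.57 and 0.63 on the 2 arrays, and in iPSC clone 2 it was 0.78 and 0.77. gPSC clone 1 stood at 0.06 and 0.03 and gPSC clone 2 at -0.05 and -0.06. ESC was at -0.01, iPSC[MEF] at 0.00 and the neonatal clones at -0.05 to 0.05, while the adult GSC parent was at 0.35 and the neonatal GSC line at 0.21.

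The clones differed in where the stretch began and how high it went. In iPSC clone 1, 80 windows in a row from Cdk5rap1 to Ogfr lay between 0.44 and 0.76. In iPSC clone 2, 58 windows from Rbm39 to Gm14325 exceeded 0.4, and 30 of them, from Rprd1b to Bcas1, lay between 1.01 and 1.33. The 6 other pluripotent lines stayed within -0.14 and 0.14 over those 30 windows. Beyond it, 24 measured genes from Dido1 to Polr3k lay lower in iPSC. Over the 12 well-expressed ones the median deviation was -0.24 in iPSC clone 1 and -0.73 in iPSC clone 2, against 0.11 and 0.09 in the gPSC clones. The neonatal iPSC clones stood at -0.22 and -0.09, so the first was about as low as adult iPSC clone 1. The neonatal gPSC clones stood at -0.10 and 0.20, ESC at 0.09, iPSC[MEF] at 0.17 and the adult GSC parent at 0.03. In 6 windows both adult iPSC clones lay at least 0.25 below both adult gPSC clones, 5 on chromosome 2 and 1 on chromosome 5. DNA was not measured on these arrays.

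Since the stretch was found by this same comparison, its counts are a description. Of its 139 genes 86 (61.9%) had both iPSC clones above both gPSC clones, against 16.1% of all genes, and 4 below. Of the 274 genes below 0.05 before adjustment, 61 lay in the 2 stretches. Of 92 genes with an upward margin over 0.5, 28 lay in the higher stretch. Besides Spint5, Wfdc2 and Sall4, the stretch holds these genes, named after their values were seen: Stk4, a Hippo pathway kinase (9.50 and 10.18 in iPSC clones, 8.72 and 8.41 in gPSC clones), Tomm34, a mitochondrial import co-chaperone (9.12 and 9.99, against 8.27 and 7.75 in gPSC clones), Pltp, a phospholipid transfer protein (8.31 and 9.72, against 7.10 and 7.47 in gPSC clones), and Bmp7, a growth factor of the TGF-beta family (6.92 and 7.70, against 6.06 and 5.52 in gPSC clones). Among the 18 genes called with the line as a random block, 6 lie in the stretch. Without the genes of both stretches, 17 genes had an upward margin of at least 1 log2 unit. limma on clone means then called 0, and 213 genes were below 0.05 before adjustment.

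**Figure D5:**
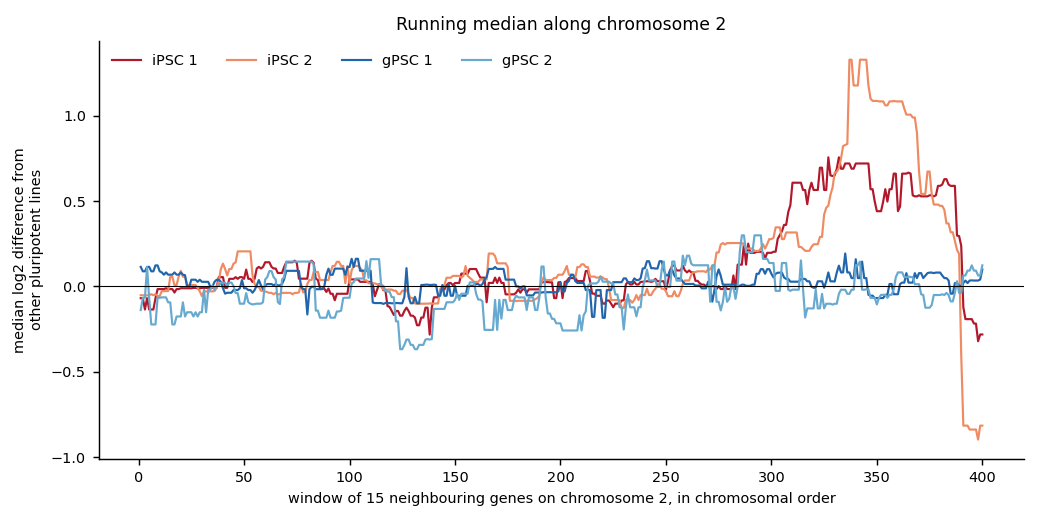
Running median of 15 neighbouring genes along chromosome 2 (horizontal axis, windows in chromosomal order) as the log2 difference from 6 other pluripotent lines (vertical axis), 1 line per adult-derived clone. Both iPSC clones rise above 0 towards the right, iPSC clone 2 up to 1.33, and drop below it at the end, while the gPSC clones lie between -0.37 and 0.30 throughout.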

How the data were processed

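Illumina mouse bead array signals of 26 arrays were used. The probe intensities were exported by the authors with BeadStudio 3.2, per the submitters' processing notes, without normalisation as far as the values show. Detection p-values per probe were deposited by the authors in the same table. The deposited matrix holds log2 values that the authors made with RMA or lumi, both named in the submitters' processing notes with no order given. Its values run from 0.20 to 14.16, its columns share a median of 2.89, and its background step is not given in the sources used here, so it served as an alternative only.

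Intensities were background-corrected, quantile normalised and log2 transformed with neqc (limma 3.58.1, R 4.3.3, offset 16). Probes detected (p under 0.01) on at least 2 arrays and carrying 1 symbol were kept, 13656 of 25697, and the brightest probe stood for each of 9840 genes. Of all probes 23978 had 1 symbol, 0 several and 1719 none; 23962 symbols were updated through Entrez identifiers. Arrays of a clone were averaged. The 8 clone means of both origins entered 1 limma fit, with Benjamini-Hochberg adjustment over all genes and 4 residual degrees of freedom; every adjusted p for adult iPSC against gPSC comes from it unless another fit is named. "At least" folds compare with the detection limit. The fit was also run on simulated clone means of 9840 genes, 200 of them changed. It called 57 of the 66 genes given an 8-fold change, and 17 genes given no change. Calls among genes given smaller changes are not reported here. The differences of Zscan4c (2.27), Tmem92 (2.27), Lama1 (2.31) and Spint5 (2.66 log2 units) were all smaller than 8-fold.

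Named genes are the 4 markers, the 5 smallest p-values, the 18 widest upward and 12 widest downward margins, the 6 widest clone differences each way and members of 23 lists; further genes are said to be chosen later. The members and lists were chosen with earlier results of these data known. Probe sequences were not used here, so near-identical copies in the Zscan4, Pramel and Tcstv families may share signal. Alternatives covered background, offset, normalisation, filter, probe choice, clones and the unit of the fit. Clone numbers did not pair the clones: same-numbered deviations correlated between -0.64 and 0.56.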

Additional observations from a re-analysis of the deposited data

Results flagged for a closer look

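Gm428 and Pdlim3 had both iPSC clones above both gPSC clones in the adult-derived set by at least 1 log2 unit, and both iPSC clones below both gPSC clones in the neonatal-derived set. Gm428 stood at 6.15 and 6.62 in the neonatal iPSC clones and at 7.08 and 7.27 in the neonatal gPSC clones, and its adult difference exceeded the neonatal by 3.08 ± 0.61 (SE). Pdlim3, a muscle-type actin-binding protein gene, stood at 6.43 and 6.24 in neonatal iPSC and at 6.56 and 6.54 in neonatal gPSC clones, and its adult difference exceeded the neonatal by 1.58 ± 0.34. Neither passed as an interaction (limma adjusted p = 0.999 for each).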

How the results depend on the processing

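limma passed 0 genes for adult iPSC against gPSC under 16 of 18 alternatives, with 93 to 1095 genes below 0.05 before adjustment over all 18, and the interaction passed 0 under every alternative run. The exceptions are the array fits, with the line as a random block and with the array number as a replicate block besides: each called 18 genes. There the differences of Zscan4c, Tmem92, Spint5 and Lama1 were 2.27, 2.27, 2.66 and 2.31, and with the replicate block their limma adjusted p was 0.0108, 0.00104, 0.00104 and 0.00492. Both fits take arrays and not clones as observations, and these genes were proposed with earlier results known.

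The number of genes past the upward margin was 8 with no background correction, 11 at an offset of 50, 52 in the deposited matrix, 67 at a 1.5-fold margin, 2 at a 4-fold margin, and 24 to 119 leaving out a clone. The downward number was 7 in the deposited matrix, 10 at a 1.5-fold margin and 5 to 444 leaving out a clone, the highest without gPSC clone 1. Leaving out a clone can only raise or keep either number, since fewer clones have to be cleared. All 18 genes kept non-overlapping clones with no background correction, an offset of 50, the deposited matrix and lower-background arrays only.

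Genes at least 2-fold apart numbered 56, 347, 31 and 464 with no background correction, 87, 516, 55 and 674 at an offset of 50, and 809, 1793, 604 and 2175 in the deposited matrix, for the iPSC pair, the gPSC pair, iPSC 1 with gPSC 1, and iPSC 2 with gPSC 2. Pou5f1 reversed to -0.082 without gPSC clone 1 and was 0.43 without gPSC clone 2. On arrays with a background under 87, an alternative chosen after seeing the data like the removal of the chromosome 2 stretches, Neurog3 reversed to -0.021 and Sox4 to 0.032. The two-cell-like median was 0.39 with no background correction and 1.97 in the deposited matrix. The endoderm median was 0.69 with the filter on the 8 adult-derived arrays. The planned batch fit was not run, since neither labels nor headers give a chip or scan. Genes near the detection limit are known only as bounds.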

Other observations

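On chromosome 13, 18 windows in a row from Mplkip to Acot13 put iPSC clone 2 between 0.41 and 0.96 above the median of the 6 other pluripotent lines, with iPSC clone 1 at 0.06 to 0.12, gPSC clone 1 at 0.39 to 0.40 and gPSC clone 2 at -0.12 to 0.15. Those lines spread from -1.21 to 1.26 there, unlike on chromosome 2.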
